A study of Mus musculus with 8 samples.

Results

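Endothelial cells (ECs) of fat-rich and oxidative tissues take up fatty acids and pass them to the cells behind the vessel wall, and 10 genes of this machinery, of 20408 genes found in any library, were followed in tumour ECs of the mouse. They were taken as a list of names, with earlier results of these libraries known. The 10 are the cytosolic fatty acid carriers Fabp4 and Fabp5, the fatty acid translocase Cd36, the lipoprotein lipase Lpl, its endothelial anchor Gpihbp1, its inhibitor Angptl4, the retinol-binding protein Rbp7, the glycerol channel Aqp7, the metalloproteinase inhibitor Timp4 and the nuclear receptor Pparg. All 10 were found in all 8 libraries and passed the filter on low values (5 CPM or more in 2 or more libraries). Timp4 reached 5 CPM only in the spontaneous PBS libraries and in replicate 2 of implanted cGAMP. It was thus tested only because of spontaneous PBS, where it was highest, and its differences that use that group are not independent of the filter.

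As background, lipoprotein lipase is made by parenchymal cells, carried across the capillary EC by GPIHBP1 and held at its luminal face, where it releases fatty acids from triglyceride-rich particles. ANGPTL4 inactivates the lipase. CD36 and the fatty acid-binding proteins move the released fatty acids into and through the EC, AQP7 passes glycerol, and the receptor PPARγ, which is switched on by fatty acids, is known to raise Fabp4, Cd36, Angptl4, Aqp7 and Rbp7 in fat or in endothelium. In normal mammary fat pad these genes are typical of capillaries. TIMP4, an inhibitor of matrix metalloproteinases that is abundant in fat, is not a lipid enzyme.

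The libraries held FACS-sorted live CD31+ ECs of breast tumours taken 3 h after an intratumoural (i.t.) injection, and each of 4 groups was covered by 2 libraries. Spontaneous tumours were those of MMTV-PyMT mice, in which the mouse mammary tumour virus promoter drives the polyoma middle T oncogene in mammary epithelium. Implanted tumours were grown from cells of such tumours that had been expanded in culture for a short time, mixed with Matrigel and put into the mammary fat pad of female mice without the transgene. Each model was given PBS or cGAMP, a cyclic dinucleotide that activates STING. The groups are named by model and injection, and the libraries of a group are replicate 1 and replicate 2. All mice were adults. The strain is not settled, because every library is labelled c57bl/6 while the methods describe FVB mice. The methods state 2 mice per group, the labels name no animal, and p-values measure the spread between these libraries only.

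A cell was counted as an EC when it carried a Pecam1 UMI (unique molecular identifier, 1 tagged transcript). This kept 7159 of 8204 cells, 601 to 1529 per library, with 7451522 to 16338968 UMIs per library. Replicate 1 of implanted cGAMP stood apart, since its ECs had a median of 3049 UMIs against 9523 to 14707.5 in the others. The 7 listed pan-endothelial genes summed to 5398 to 6514 CPM in every library (UMIs scaled to the same total in each cell, then averaged), and 7 barcodes occurred in more than 1 library. Of the 8 adipocyte markers listed, Lep was not in the tables, Adrb3 was at 0 in all libraries, Adipoq was between 0 and 0.321 CPM, and their sum was 0.259 to 6.25 CPM. The defining markers of fat cells were thus at or near 0 in these ECs. Cells of the other listed types were more frequent, since 8.11% to 37.9% of the ECs of a library also passed a gate of at least 1 other cell type, least in implanted PBS and most in spontaneous cGAMP.

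Levels are means over the ECs of a library on the CPM scale. These 3′ libraries tag each transcript once, so that CPM carries no length term. Levels are set side by side between genes as a description only, since how completely each gene is counted was not tested. Fabp4 was the most abundant of the 10 in every library, between 2427 and 6976 CPM. The levels of Gpihbp1 (681 to 1291 CPM), Rbp7 (148 to 1448 CPM), Fabp5 (262 to 599.7 CPM) and Cd36 (252 to 556 CPM) were lower than Fabp4 in every library. The range of Gpihbp1 lay above those of Fabp5 and Cd36, and that of Rbp7 overlapped all 3. Angptl4 lay between 87.6 and 170.4 CPM, below the others so far except for Rbp7 in replicate 1 of implanted cGAMP. Pparg was between 24.2 and 58.5 CPM, Lpl between 11.98 and 49.3 CPM, Aqp7 between 7.20 and 19.1 CPM and Timp4 between 1.61 and 19.7 CPM, and the ranges of the last 3 overlapped. Summed over the 10 genes, the level was 8375 and 11098 CPM in spontaneous PBS, 9222 and 8827 CPM in spontaneous cGAMP, 7636 and 7728 CPM in implanted PBS, and 3974 and 5914 CPM in implanted cGAMP. Both implanted cGAMP libraries had the lowest sums, and most of each sum was Fabp4.

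**Figure D1:**
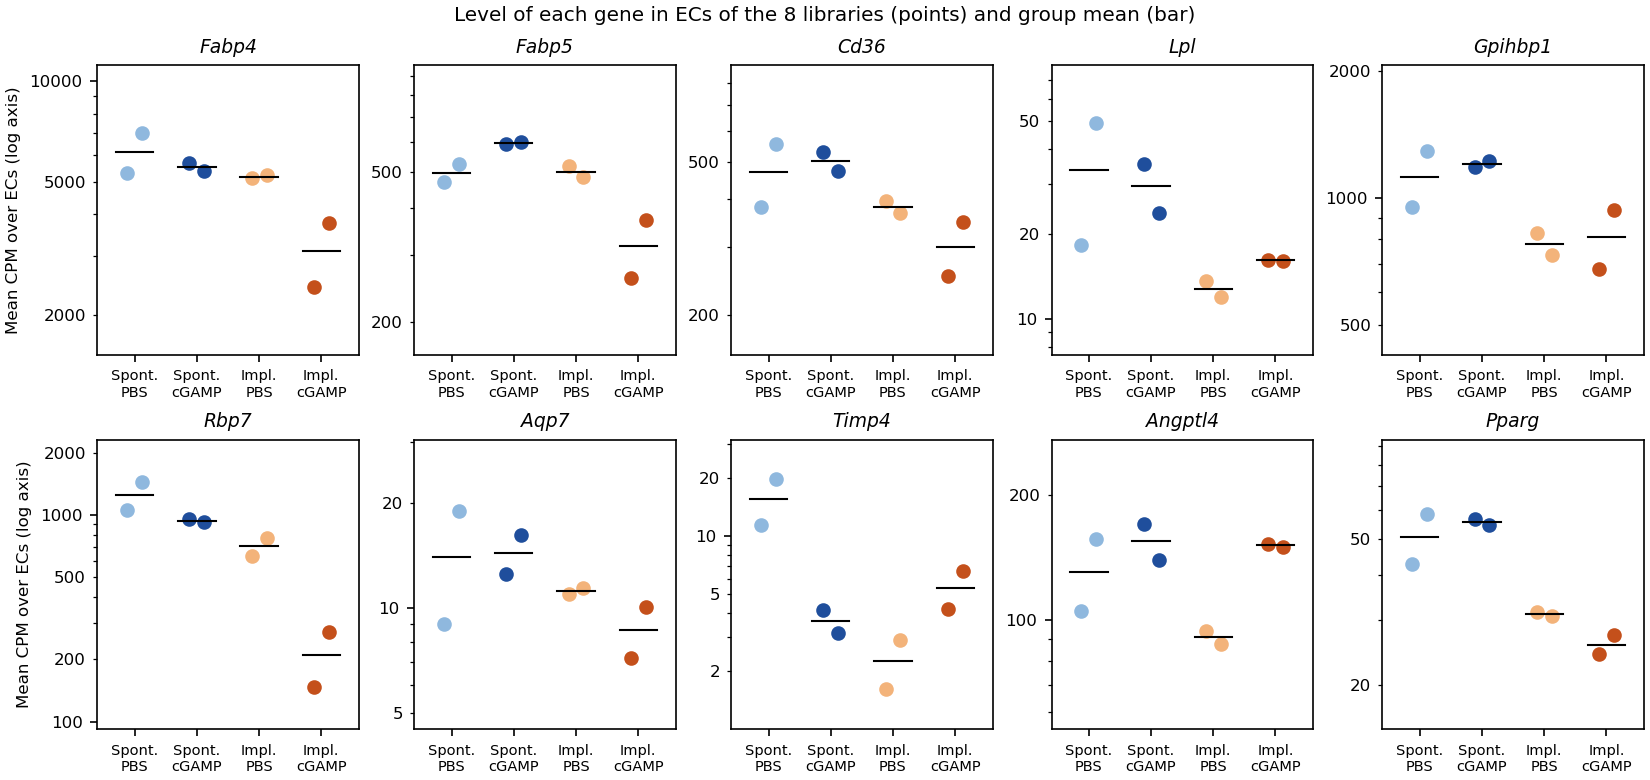
Level of each gene (mean CPM over ECs, log axis) in the 8 libraries (points) with the mean of each group (bar), 1 panel per gene. The 2 implanted cGAMP libraries hold the lowest points for Fabp4, Fabp5 and Rbp7, and the 2 spontaneous PBS libraries hold the highest points for Timp4.

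In the GRCm38 assembly (mm10, GENCODE vM21) the fatty acid-binding genes Fabp5 (chr3:10012548-10016607, plus strand) and Fabp4 (chr3:10204088-10208576, minus strand) lie close together. Rbp7 (chr4:149449687-149454978, minus strand) and Aqp7 (chr4:41033074-41048139, minus strand) share another chromosome, and Timp4 (chr6:115241892-115252205, minus strand) lies beside Pparg (chr6:115360951-115490399, plus strand). Cd36 is at chr5:17781690-17888801 on the minus strand, Lpl at chr8:68880491-68907448 on the plus strand, Gpihbp1 at chr15:75596628-75599481 on the plus strand and Angptl4 at chr17:33773750-33781830 on the minus strand. All 10 are protein coding. Timp4 overlaps Syn2 and Gm17482 on the opposite strand, and Pparg overlaps Gm44079 on the opposite strand. Fabp5 has the near copy Fabp5l2, to which the authors' counting could have assigned some of its reads.

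Promoters of 5 of the 10 genes (8 entries) were matched in RefSeq sequences of the GRCm38.p6 assembly, and 250 bases before each annotated start were read. They were searched for the nuclear receptor half-site AGGTCA on either strand (TGACCT on the other), and for the direct repeat of that site with 1 spacer base, AGGTCANAGGTCA, which PPARγ binds with RXR. The half-site was found in 5 entries, belonging to Cd36, Aqp7 and Pparg, and in 14.02% of all 32851 promoters of that length. The direct repeat was found in 0 of the 8 entries and in 0.0335% of all promoters. The 3 sequences below were picked by tests described further on. Rbp7 had the largest cGAMP difference of the 10 in implanted tumours, and Aqp7 the largest difference between capillary-marker and other cells. Timp4 was the gene whose difference of responses between the models passed the threshold. That Timp4 result is not independent of the filter and was lost in several fits that left out 1 library. Capitals mark the half-site, whose first base in the Aqp7 promoter is at -49 from the start.
Rbp7 (chr4:149454969-149455218, minus strand): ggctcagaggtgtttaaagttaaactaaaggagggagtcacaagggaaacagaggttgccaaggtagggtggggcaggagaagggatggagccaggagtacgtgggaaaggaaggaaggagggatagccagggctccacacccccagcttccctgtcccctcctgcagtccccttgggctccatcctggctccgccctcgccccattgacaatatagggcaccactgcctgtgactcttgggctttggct
Timp4 (chr6:115252206-115252455, minus strand): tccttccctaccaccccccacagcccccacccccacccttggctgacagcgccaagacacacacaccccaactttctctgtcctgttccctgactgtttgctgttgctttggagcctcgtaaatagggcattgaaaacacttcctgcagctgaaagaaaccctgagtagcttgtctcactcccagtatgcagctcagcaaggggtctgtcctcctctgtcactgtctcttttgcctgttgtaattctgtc
Aqp7 (chr4:41048137-41048386, minus strand): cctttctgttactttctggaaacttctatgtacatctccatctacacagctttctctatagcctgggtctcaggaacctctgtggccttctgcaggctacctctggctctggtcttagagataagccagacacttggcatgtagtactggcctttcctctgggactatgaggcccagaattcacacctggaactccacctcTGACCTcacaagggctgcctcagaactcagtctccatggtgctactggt
A match describes the letters only, and the windows of Rbp7 and Timp4 held no match.

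In implanted tumours, ECs after cGAMP held less Rbp7, Fabp4 and Fabp5 and more Angptl4 than after PBS. These 4 of the 10 genes were called, that is their adjusted p was under 0.05 (limma on log2 of the mean CPM plus 1, Benjamini-Hochberg over 10424 genes), while 25% of all genes tested were called in this comparison. Of the called genes 3 fell and 1 rose, beside 16.4% and 8.6% of all genes. The median log2 fold change was -0.31 over the 10 genes and -0.10 over all genes.

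Rbp7, which binds retinol in the cytosol, changed most. Its level was 632 and 777 CPM in the implanted PBS libraries and 148 and 272 CPM in the implanted cGAMP libraries. Both cGAMP libraries lay well below both PBS libraries. The log2 fold change was -1.80 ± 0.24 (SE, adjusted p = 0.000865, limma), that is 3.48-fold lower, and the call held in every alternative run, leaving out each library included. With 2000 UMIs drawn from each cell, 38.3% and 43.3% of ECs carried an Rbp7 UMI after PBS and 14.9% and 19.8% after cGAMP (56.3% and 63.9%, and 21.6% and 38.1%, before drawing). Cells below that depth were left out, which removed 37.9% of the ECs of the shallow library, replicate 1 of implanted cGAMP, and between 3.28% and 10.6% elsewhere. In the 77 mural-marker cells without a Pecam1 UMI, which should lack the gene, the share at the same drawn depth was 6.49% (median depth before drawing 9301 UMIs against 12826.5 in ECs). The Rbp7 shares of the cGAMP libraries were thus lower than those of the PBS libraries. They lay above this background, which was pooled over libraries. Of cells of other types without a Pecam1 UMI, replicate 1 of implanted cGAMP held 23. Their Rbp7 share was 13.04%, close to the 14.9% of the ECs of that library. Each other implanted library held 1 or 3 such cells, too few to compare. The 23 cells pooled epithelial- and mural-marker cells. Over all libraries, 53.6% of the 28 epithelial-marker cells carried a UMI of the pan-endothelial gene Cdh5, against 3.90% of mural-marker cells. The 23 cells may therefore include ECs and are not a clean background. They cannot decide whether the Rbp7 share of replicate 1 exceeded its own background.

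The fatty acid carriers fell as well. Fabp4 was at 5112 and 5224 CPM after PBS and at 2427 and 3772 CPM after cGAMP, with no overlap. Its log2 fold change was -0.77 ± 0.18 (adjusted p = 0.0136). Fabp4 lost its call without replicate 1 (adjusted p = 0.0581) or replicate 2 (0.0776) of implanted PBS and without a filter on low values (0.0803). Fabp5 was at 518 and 484 CPM after PBS and at 262 and 373 CPM after cGAMP, again without overlap, and its log2 fold change of -0.68 ± 0.14 (adjusted p = 0.00681) kept its call in every alternative run. For both carriers the share of cells with a UMI could not be read as expression by ECs alone. Of the mural-marker cells 75.3% carried a Fabp4 UMI against 74.8% of ECs, and 48.1% carried a Fabp5 UMI against 33.1% of ECs. In the lymphatic-marker class described below the mean shares were lower, 23.6% for Fabp4 and 10.1% for Fabp5. Whether the UMIs in mural-marker cells were made by those cells was not tested. The CPM levels share this limit. Fabp4 was at 3420 CPM in those mural-marker cells and 4706 CPM in ECs, and Fabp5 at 668 and 455 CPM. How far UMIs from other cells enter the CPM differences of the carriers was not tested.

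Angptl4, the lipase inhibitor, went the other way. It was at 94.4 and 87.6 CPM in implanted PBS and at 153 and 150.4 CPM in implanted cGAMP. The groups did not overlap, and the level was 1.66-fold higher after cGAMP (log2 0.73 ± 0.16, adjusted p = 0.0106). Without replicate 2 of implanted PBS the adjusted p was 0.0745.

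The other 6 genes did not pass the test in implanted tumours. Cd36 was at 394 and 367 CPM after PBS and 252 and 348 CPM after cGAMP (log2 -0.36 ± 0.18, adjusted p = 0.185, and called at -0.59 without replicate 2 of implanted cGAMP, adjusted p = 0.0435). The log2 value of Pparg was -0.27 ± 0.14 (adjusted p = 0.204), that of Aqp7 -0.35 ± 0.30 (0.437) and that of Lpl 0.32 ± 0.37 (0.574). Gpihbp1, the anchor of the lipase, was at 827 and 732 CPM after PBS and at 681 and 938 CPM after cGAMP, so the groups overlapped (log2 0.04 ± 0.16, adjusted p = 0.892). Timp4 was at 1.61 and 2.91 CPM after PBS and at 4.21 and 6.57 CPM after cGAMP (log2 0.98 ± 0.35, adjusted p = 0.0669). It was called with cells of at least 2000 UMIs (0.0354) and without capillary-marker cells (0.0265).

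The make-up of the sorted cells moved along with cGAMP in implanted tumours. In implanted PBS, 10.7% to 12.7% of ECs were in the capillary-marker class described below, 3.83% to 5.60% in the lymphatic-marker class and 9.20% to 11.3% in the proliferative-marker class. In implanted cGAMP these shares were 4.12% to 10.3%, 10.3% to 11.1% and 0.662% to 1.11%. Arterial-marker cells were 17.1% and 22.2% of ECs in implanted PBS and 10.9% and 15.4% in implanted cGAMP. Tip-marker cells were 10.2% and 6.65% in implanted PBS and 12.9% and 15.7% in implanted cGAMP. Fits without arterial-, venous- or tip-marker cells were not run, so the part of these classes was not tested. The differences of the called genes were of like size without capillary-, lymphatic- or proliferative-marker cells, each class left out alone. Without capillary-marker cells the log2 fold change was -1.75 for Rbp7, -0.74 for Fabp4, -0.67 for Fabp5 and 0.97 for Angptl4. Without lymphatic-marker cells it was -1.71, -0.69, -0.65 and 0.78, and without proliferative-marker cells -1.77, -0.84, -0.76 and 0.67, in the same order. Immune markers summed to 9.49 and 13.7 CPM in implanted PBS and to 149 and 36.1 CPM in implanted cGAMP, and without cells that passed a gate of another cell type the values were -1.64, -0.67, -0.67 and 0.70.

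In spontaneous tumours Timp4 was the 1 gene of the 10 that was called after cGAMP, beside 12.7% of all genes, and it fell (7.59% of all genes were called lower). It was at 11.3 and 19.7 CPM in spontaneous PBS and at 4.17 and 3.15 CPM in spontaneous cGAMP. The groups did not overlap. The level was 3.46-fold lower (log2 -1.79 ± 0.35, adjusted p = 0.00996). These levels rested on few molecules, 63 and 78 UMIs in 24 and 28 cells after PBS and 36 and 24 UMIs in 15 and 12 cells after cGAMP. Timp4 had passed the filter on low values only through the spontaneous PBS group, so the fall is not independent of that filter. The call was lost without replicate 2 of spontaneous PBS (adjusted p = 0.0805), without replicate 1 (0.0522) or replicate 2 (0.0787) of spontaneous cGAMP, and without capillary-marker cells (log2 -0.73, adjusted p = 0.28). Mural markers summed to 84.8 and 439 CPM in the PBS and 740 and 588 CPM in the cGAMP libraries of this model. Without cells that passed a gate of another cell type, the log2 value of Timp4 was -1.40 (adjusted p = 0.0474).

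The remaining 9 genes did not pass the test in spontaneous tumours. Fabp4 was at 5328 and 6976 CPM after PBS and at 5683 and 5367 CPM after cGAMP, and these ranges overlapped (log2 -0.14 ± 0.18, adjusted p = 0.655). Rbp7 was at 1059.9 and 1448 CPM after PBS and at 954 and 923 CPM after cGAMP (log2 -0.40 ± 0.24, adjusted p = 0.311). Fabp5 was at 469 and 523 CPM after PBS and at 593 and 599.7 CPM after cGAMP (log2 0.27 ± 0.14, adjusted p = 0.232). The groups did not overlap for Fabp5, higher after cGAMP, or for Rbp7, lower after cGAMP. Fabp5 was called without either library of implanted cGAMP (0.0369 without replicate 1 and 0.0373 without replicate 2). Angptl4 differed by 0.26 ± 0.16 on the log2 scale (adjusted p = 0.329, and 0.047 without replicate 2 of spontaneous PBS). Pparg (0.15 ± 0.14, adjusted p = 0.522), Cd36 (0.12 ± 0.18, 0.708), Gpihbp1 (0.12 ± 0.16, 0.675), Aqp7 (0.11 ± 0.30, 0.849) and Lpl (-0.05 ± 0.37, 0.942) were closer to 0 on the log2 scale. The median over the 10 genes was 0.11 and that over all genes -0.10.

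**Figure D2:**
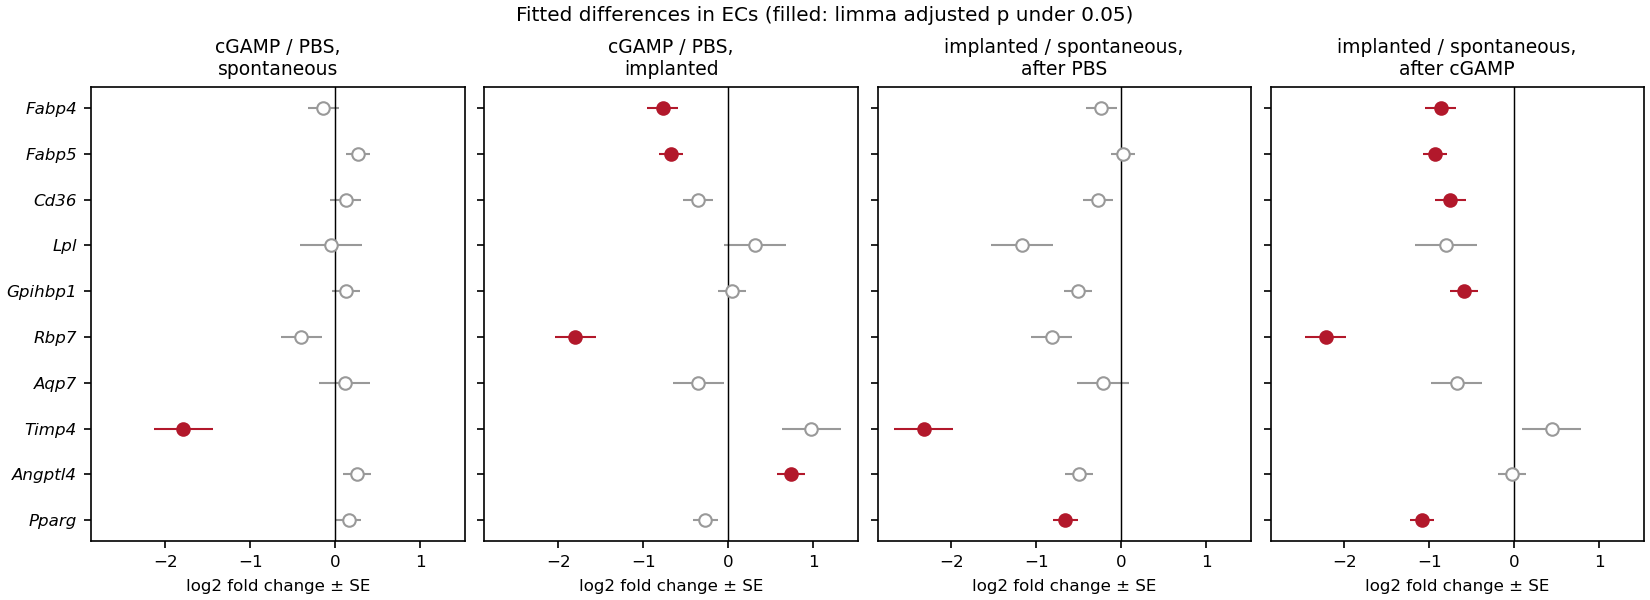
Log2 fold change of each gene with its SE in the comparisons between pairs of groups (panels), with filled points for an adjusted p under 0.05. The difference of the responses is not drawn. In implanted tumours Rbp7 (-1.80), Fabp4 and Fabp5 are filled below 0 and Angptl4 (0.73) above it, whereas in spontaneous tumours Timp4 (-1.79) is the filled point.

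Whether the responses themselves differed was tested as implanted minus spontaneous. Timp4 was called, 1 gene of the 10 beside 0.662% of all genes, with a difference of 2.76 ± 0.49 (95% confidence interval 1.67 to 3.86, adjusted p = 0.046). The counts behind it were small, and the implanted libraries held 14 and 24 Timp4 UMIs after PBS and 50 and 29 after cGAMP. Timp4 was tested only because spontaneous PBS lifted it over the filter, and that group enters this difference. The call is thus not independent of the filter. Timp4 kept the direction but lost the call in 7 of the alternatives that left out no library, with adjusted p-values of up to 0.206, and in 6 of 8 that left out 1. In these the adjusted p was 0.0771 and 0.141 without replicate 1 and 2 of spontaneous PBS, 0.109 and 0.247 without replicate 1 and 2 of spontaneous cGAMP, 0.15 without replicate 1 of implanted PBS, and 0.0529 without replicate 2 of implanted cGAMP. Fabp5 (-0.95 ± 0.20, adjusted p = 0.0776) and Rbp7 (-1.40 ± 0.35, adjusted p = 0.12) did not pass the threshold, so their responses were not shown to differ between the models. Fabp5 and Rbp7 were called with UMIs summed per library (0.0206 and 0.0135), with 2000 UMIs drawn per cell (0.0183 and 0.0139) and without replicate 2 of implanted cGAMP (0.00545 and 0.0127), and Fabp5 also without replicate 1 of implanted cGAMP (0.0354). Fabp4 (-0.63 ± 0.26, adjusted p = 0.339) was called without replicate 2 of implanted cGAMP too (0.0367). For Gpihbp1 the difference was -0.08 (adjusted p = 0.912).

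The models were then compared after the same injection. After PBS, 2 of the 10 genes were called, both lower in implanted tumours, beside 7.83% of all genes called and 4.44% called lower. The level of Timp4 was 15.5 ± 5.93 CPM (SD, n = 2) in the spontaneous and 2.26 ± 0.918 CPM in the implanted model, 5.01-fold lower (log2 -2.32 ± 0.35, adjusted p = 0.00445, and 0.0547 without replicate 2 of spontaneous PBS). This difference, too, uses the group through which Timp4 passed the filter. The fatty acid receptor Pparg was at 42.7 and 58.5 CPM in spontaneous and at 31.7 and 30.8 CPM in implanted tumours, and all 4 spontaneous libraries lay above all 4 implanted ones. Its log2 difference was -0.66 ± 0.14 (adjusted p = 0.0251). Pparg lost the call without replicate 2 of spontaneous PBS (log2 -0.44, adjusted p = 0.164), without replicate 1 (0.119) or 2 (0.126) of implanted PBS, without replicate 1 (0.0525) or 2 (0.0528) of spontaneous cGAMP, with 2000 UMIs drawn per cell (0.144), when UMIs were summed by library (0.0684) and without a filter on low values (0.0834). Rbp7 (-0.82 ± 0.24, adjusted p = 0.0749), Lpl (-1.17 ± 0.37, 0.0845), Gpihbp1 (-0.51 ± 0.16, 0.0925) and Angptl4 (-0.50 ± 0.16, 0.101) had values below 0 and did not pass. Rbp7 was called in several alternatives, among them UMIs summed per library (0.0203) and the fits without replicate 1 (0.00615) or 2 (0.00635) of implanted cGAMP, which also called Gpihbp1 (0.0301 and 0.0308). Lpl (0.00559) and Angptl4 (0.0169) were called without replicate 1 of spontaneous PBS. In 9 of the 10 genes the value was below 0, with a median of -0.50 against -0.06 over all genes, and Fabp5 (0.02, adjusted p = 0.962) was the exception.

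After cGAMP, 6 of the 10 genes were lower in implanted than in spontaneous tumours and 0 were higher, beside 13.8% of all genes called and 8.53% called lower. The level of Rbp7 was 938 ± 22.3 CPM in the spontaneous and 209.7 ± 88.0 CPM in the implanted model (SD, n = 2), 4.67-fold lower (log2 -2.22 ± 0.24, adjusted p = 0.00166). Pparg was at 55.8 ± 1.65 and 25.8 ± 2.17 CPM, 2.13-fold lower (adjusted p = 0.00272). Both kept their calls in every alternative run. Fabp5 was 1.91-fold lower (adjusted p = 0.00456, and 0.0602 without replicate 2 of spontaneous cGAMP). Fabp4 was 1.83-fold lower (adjusted p = 0.016), and lost the call without replicate 1 (0.0935) or 2 (0.103) of spontaneous cGAMP and without a filter on low values (0.089). Cd36 was 1.69-fold lower (adjusted p = 0.0263), and lost the call without those libraries (0.14 and 0.119) without replicate 1 of implanted cGAMP (0.099) or without that filter (0.0963). Gpihbp1 was 1.51-fold lower (log2 -0.59 ± 0.16, adjusted p = 0.0429). Its call was lost with median-of-ratios scaling (0.0813), with UMIs summed by library (0.0511), without a filter on low values (0.136), with the crossed replicate block (0.0524), without lymphatic-marker cells (0.0789), without capillary-marker cells (0.109), and without replicate 1 (0.143) or 2 (0.21) of spontaneous cGAMP, replicate 1 (0.057) or 2 (0.0575) of implanted PBS, or replicate 1 of implanted cGAMP (0.166). Lpl (-0.80 ± 0.37, adjusted p = 0.173), Aqp7 (-0.68 ± 0.30, 0.164), Timp4 (0.44 ± 0.35, 0.43) and Angptl4 (-0.02 ± 0.16, 0.94) did not pass. Lpl was called without replicate 1 (0.0312) or 2 (0.0333) of spontaneous PBS. The median over the 10 genes was -0.78 and that over all genes -0.07.

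The genes were next placed among vessel types. Cells were put into marker classes by scores of arterial (8 markers), venous (5), capillary (5), tip (7), proliferative (9) and lymphatic (8) genes, and none of the 10 genes was used. This gave 1068 arterial-, 1165 venous-, 845 capillary-, 765 tip-, 336 proliferative- and 437 lymphatic-marker cells, and 2543 (35.5%) stayed unassigned. The classes are ranges of a score, with 1093 cells (15.3%) within 0.1 of a limit. Class means per library were used where a library held at least 10 cells, which left 5 libraries for the proliferative and 8 for each other class. Library was kept as a block in the test of a class against the mean of the others.

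Against the mean of the other classes, all 10 genes were higher in capillary-marker cells, beside 17.3% of all genes called and 9.5% called higher, and this held without any 1 library. Aqp7, the glycerol channel, had the largest difference. Aqp7 was between 24.4 and 59.2 CPM in capillary-marker cells (mean 43.0), at 16.0 ± 8.41 CPM in arterial-marker cells and below 4 CPM on average in the other classes (log2 difference 3.89 ± 0.41, adjusted p = 1.9e-09). The highest arterial value (29.5 CPM) overlapped the lowest capillary one. Lpl was at 89.1 ± 36.3 CPM in capillary-marker cells, and its next class, the lymphatic, was at 23.0 ± 19.9 CPM (3.55 ± 0.52 against all others). Lpl was also found outside ECs, since 39.0% of the mural-marker cells without a Pecam1 UMI carried an Lpl UMI against 2.66% of ECs. Timp4 was at 28.4 ± 26.3 CPM in capillary-marker cells and had a median of 0 in tip-, venous- and proliferative-marker cells (3.14 ± 0.39).

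The fatty acid carriers differed in level between the classes. Fabp4 ran from 9623 ± 2235 CPM in capillary- over 6275 ± 2406 CPM in venous-, 3989 ± 1134 CPM in proliferative- and 3730.2 ± 564 CPM in arterial- to 2836 ± 961 CPM in tip-marker cells. It was at 400.1 ± 248 CPM in lymphatic-marker cells. The capillary and venous ranges overlapped (6643 to 12385 and 2398 to 9801 CPM). The venous range also held that of the arterial class (3021 to 4526 CPM) and overlapped that of the tip class (1027 to 3982 CPM). Fabp5 was at 901 ± 251 CPM in capillary-, 668 ± 125 CPM in proliferative-, 539 ± 188 CPM in venous- and 316 ± 163 CPM in tip-marker cells. In arterial-marker cells it was at 178 ± 47.8 CPM and in lymphatic-marker cells at 74.5 ± 50.4 CPM. The carriers thus did not share the same order. Set directly against the proliferative class, with its 5 libraries, 2 of the 10 genes were called higher in capillary-marker cells, Cd36 (1.94 ± 0.34, adjusted p = 0.0276) and Fabp4 (1.25 ± 0.23, 0.0322), beside 6.11% of all genes. The other 8 were not called, among them Fabp5 (log2 0.24 ± 0.23, adjusted p = 0.52), Gpihbp1 (1.17 ± 0.27, 0.0506) and Rbp7 (1.25 ± 0.31, 0.0623). Cd36 was at 906 ± 212 CPM in capillary-, 517 ± 124 CPM in arterial- and 16.1 ± 16.7 CPM in lymphatic-marker cells. Pparg was at 75.8 ± 21.5 CPM in capillary-marker cells and between 26.5 and 40.6 CPM on average in the others (1.25 ± 0.18).

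A second high class was found for 3 of the genes. Rbp7 was at 1608 ± 817 CPM in capillary- and 1515 ± 912 CPM in arterial-marker cells, and these did not differ beyond their error (log2 0.10 ± 0.15, adjusted p = 0.71, with 20% of all genes called between the classes). In tip-, venous- and lymphatic-marker cells Rbp7 was at 226 ± 153, 119 ± 87.8 and 14.7 ± 10.8 CPM. Gpihbp1 was at 1904 ± 525 CPM in tip- and 1878 ± 308 CPM in capillary-marker cells, with a log2 difference, capillary against tip, of 0.01 ± 0.15 (adjusted p = 0.99, with 9.87% of all genes called), and was at 154 ± 89.5 CPM in venous-marker cells. Angptl4 was at 255 ± 70.3 CPM in lymphatic-, 226 ± 70.6 CPM in tip- and 213 ± 48.0 CPM in capillary-marker cells, and these 3 did not differ beyond their error (adjusted p = 0.5 and 0.93 against capillary, with 25.3% and 9.87% of all genes called). Arterial-marker cells had the lowest mean level of Angptl4, 30.4 ± 10.8 CPM.

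The other classes had mixed results for these genes. Against the mean of the other classes, arterial-marker cells held 4 of the 10 higher and 2 lower (31.7% of all genes called), lymphatic-marker cells 2 higher and 6 lower (39.2%), proliferative-marker cells 3 higher and 2 lower (34.4%), tip-marker cells 2 higher and 2 lower (26.1%), and venous-marker cells 3 higher and 7 lower (20.5%). In venous-marker cells Cd36 (1.25), Fabp4 (1.20) and Fabp5 (0.83) were higher on the log2 scale, while Gpihbp1 (-2.27 ± 0.22) and Rbp7 (-1.68) were lower. In lymphatic-marker cells Angptl4 (1.21 ± 0.17) and Timp4 (1.01 ± 0.39) were higher, while Rbp7 (-5.17), Cd36 (-5.01) and Fabp4 (-3.93) were lower.

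**Figure D3:**
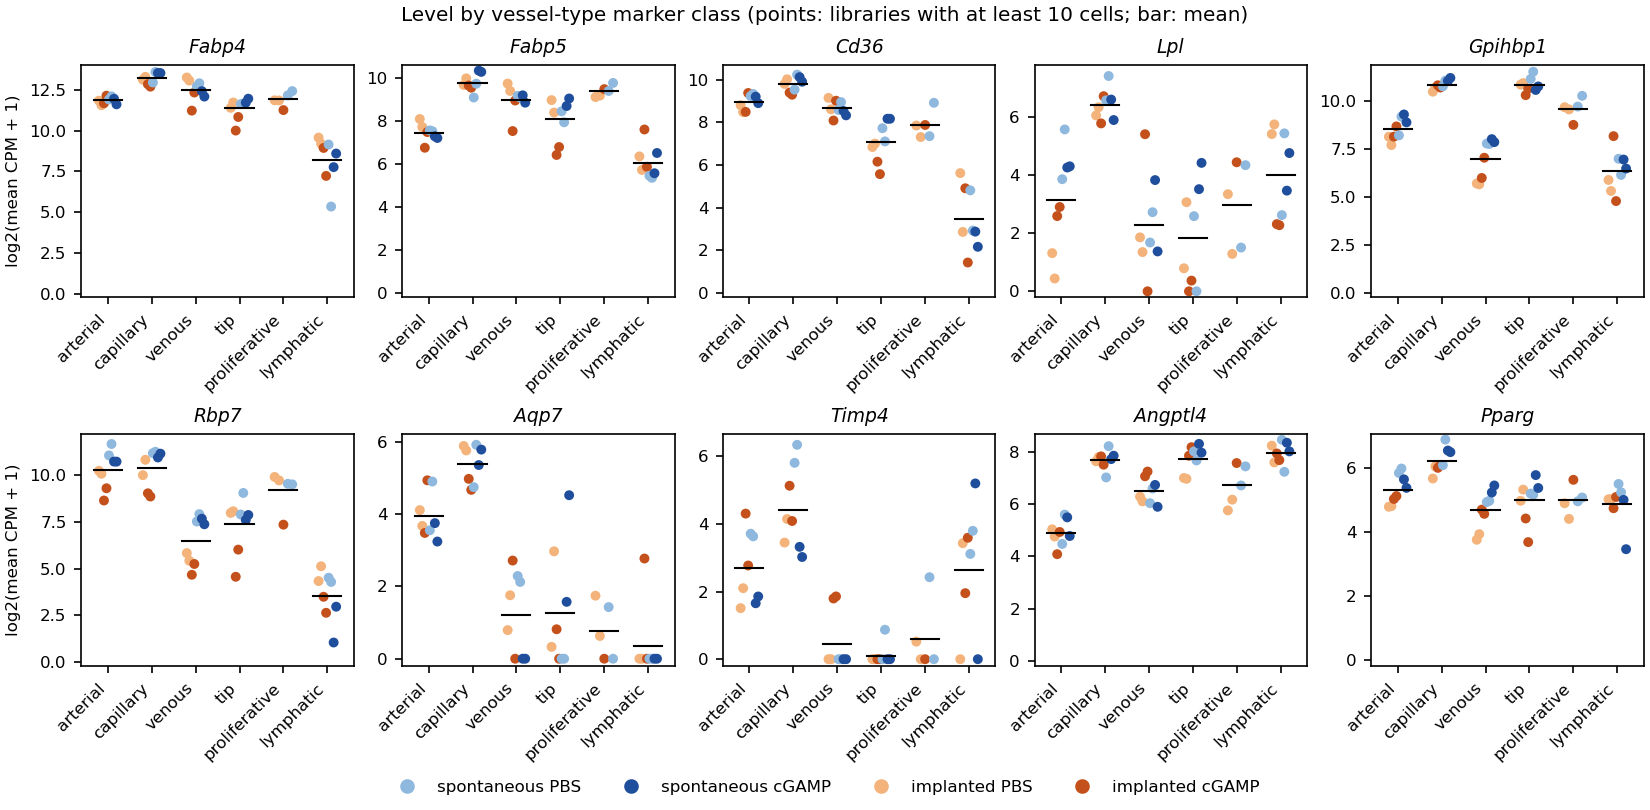
Level of each gene (log2 of mean CPM plus 1) in 6 vessel-type marker classes, with points for libraries with at least 10 cells of the class and bars for their mean. The capillary class has the highest mean in every panel except that of Angptl4, where the lymphatic and tip classes lie somewhat above it. Rbp7 lies near the capillary mean in the arterial class and Gpihbp1 in the tip class.

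The response to cGAMP in implanted tumours was then measured within the classes. Of the 10 genes, 2 were called in arterial- (5.0% of all genes), 3 in venous- (10.1%), 1 in capillary- (4.25%), 5 in tip- (9.78%), 1 in proliferative- (0.0768%, with 1 library and so no replication after cGAMP) and 0 in lymphatic-marker cells (2.39%), by limma in all. The gates use genes that cGAMP itself changed. In implanted tumours 4 of the 7 tip markers were called higher and 2 lower, and 4 of the 8 lymphatic markers were called higher. All 9 proliferative markers, 5 of the 8 arterial, 2 of the 5 venous and 1 of the 5 capillary markers were called lower. None of the classes thus need hold the same cells after PBS and after cGAMP. Tip-marker cells were 6.65% to 10.2% of ECs in implanted PBS and 12.9% to 15.7% in implanted cGAMP.

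Rbp7 was lower after cGAMP in several classes. In capillary-marker cells it was at 1028 and 1818 CPM after PBS and at 524 and 465 CPM after cGAMP (log2 -1.47 ± 0.20, adjusted p = 0.001). In arterial-marker cells it was at 1206 and 1081 CPM after PBS and at 401 and 631 CPM after cGAMP (-1.18 ± 0.20, adjusted p = 0.0023). In tip-marker cells it was at 253 and 269 CPM after PBS and at 22.8 and 64.0 CPM after cGAMP (-2.73 ± 0.39, adjusted p = 0.00054). In none of these 3 classes did the groups overlap. Drawn to 2000 UMIs per cell, 22.1% and 35.3% of tip-marker cells carried an Rbp7 UMI after PBS and 6.52% and 3.41% after cGAMP, the latter at the level of the mural-marker background. In venous-marker cells, where Rbp7 was low to start with, it was at 56.2 and 42.1 CPM after PBS and 24.6 and 37.2 CPM after cGAMP (adjusted p = 0.081).

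Tip-marker cells had the most of the 10 genes called. Fabp5 was at 494 and 331 CPM in implanted PBS and at 83.6 and 108 CPM in implanted cGAMP, without overlap (log2 -2.07 ± 0.22, adjusted p = 7.1e-05). In spontaneous tumours the same cells held 344 and 241 CPM of Fabp5 after PBS and 409 and 520.4 CPM after cGAMP. The difference of these responses was called (-2.75 ± 0.32, adjusted p = 0.00073), and so was that of Cd36 (-1.81 ± 0.33, adjusted p = 0.021), that is 2 of the 10 genes beside 0.701% of all genes. Cd36 in tip-marker cells was at 114 and 127 CPM in implanted PBS, 70.2 and 46.5 CPM in implanted cGAMP, 211 and 137 CPM in spontaneous PBS and 287 CPM in both spontaneous cGAMP libraries. Both cGAMP libraries lay below their PBS group in implanted tumours (called, adjusted p = 0.010) and above it in spontaneous tumours (not called, adjusted p = 0.083). With 2000 UMIs drawn per cell, a Fabp5 UMI was found in 29.5% and 39.7% of tip-marker cells of implanted PBS and in 8.70% and 14.8% of those of implanted cGAMP, all below the 48.1% of mural-marker cells. Fabp4 also fell in tip-marker cells of implanted tumours (-1.14, adjusted p = 0.0026) and Angptl4 rose (1.03, adjusted p = 0.0025).

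In venous-marker cells of implanted tumours, Fabp4 was at 9801 and 8602 CPM after PBS and at 2398 and 5177 CPM after cGAMP (-1.38, adjusted p = 0.005). Fabp5 fell there too (-1.33, adjusted p = 0.02) and Angptl4 rose (0.96, adjusted p = 0.029). In capillary-marker cells, where both carriers were most abundant, neither was called. In arterial-marker cells Fabp5 fell (-0.78, adjusted p = 0.043). The proliferative class held 1 library with at least 10 cells after cGAMP (17 cells), so that the value of Rbp7 there (-2.46, adjusted p = 0.042) has no replicate check in that group and assumes that the lone library varies like the others.

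Within classes of spontaneous tumours 3 values were called, 0 of them in arterial-, venous- or lymphatic-marker cells (beside 3.28%, 4.33% and 2.06% of all genes). In capillary-marker cells (2 of 10 genes, beside 2.01% of all genes) Timp4 was at 54.8 and 79.7 CPM after PBS and at 8.98 and 7.11 CPM after cGAMP (-2.90 ± 0.43, adjusted p = 0.0016). Fabp5 was there at 537 and 838 CPM after PBS and at 1279 and 1227 CPM after cGAMP (0.90 ± 0.18, adjusted p = 0.013). The groups did not overlap for either gene, and they moved in opposite directions. In tip-marker cells (1 of 10, beside 6.23%) Gpihbp1 was at 2285 and 2966 CPM after PBS and at 1537 and 1745 CPM after cGAMP (-0.67 ± 0.15, adjusted p = 0.011). The Timp4 response in capillary-marker cells differed between the models (3.71 ± 0.61, adjusted p = 0.039, 1 of 10 genes beside 0.183% of all genes). Timp4 was there at 9.89 and 16.7 CPM in implanted PBS and at 33.9 and 15.9 CPM in implanted cGAMP. The genes tested within classes were those that passed the filter over all ECs. Timp4 passed it only through spontaneous PBS, which enters both Timp4 values here, so neither is independent of the filter. Its counts were small over all ECs, as given above.

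**Figure D4:**
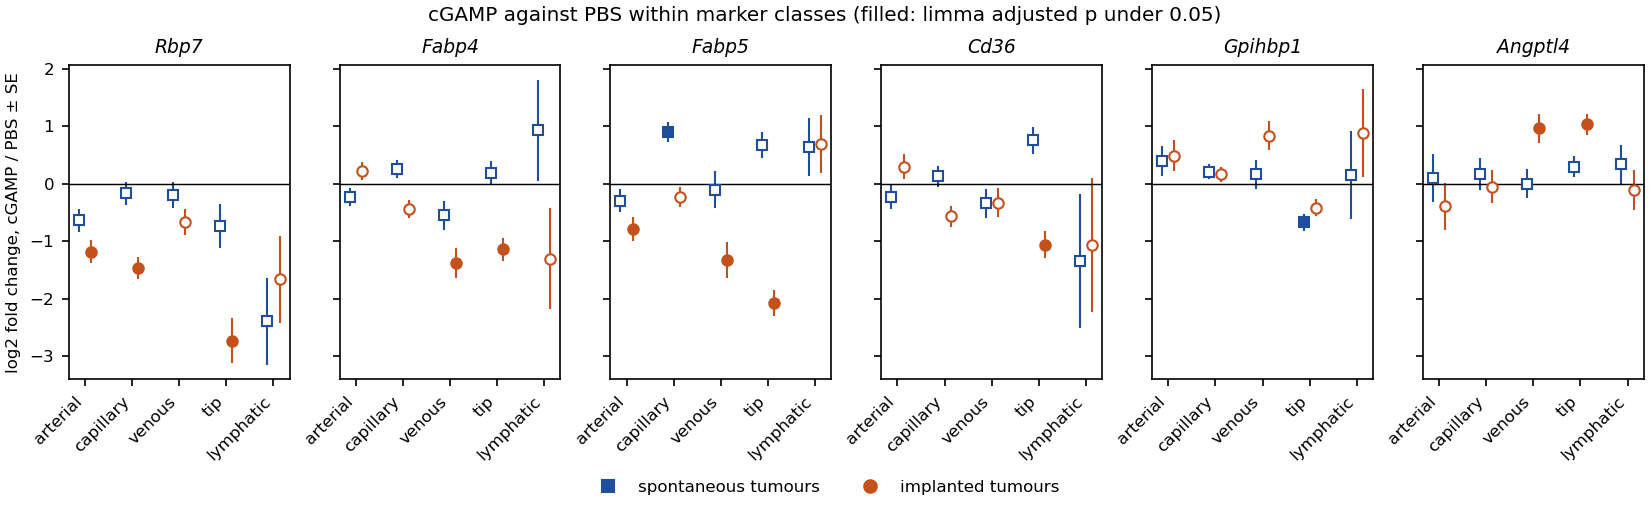
Log2 fold change of cGAMP against PBS, with its SE, within the marker classes of each model, with filled points for an adjusted p under 0.05. Rbp7 is filled below 0 in the arterial, capillary and tip classes of implanted tumours (-1.18, -1.47 and -2.73), and Fabp5 lies below 0 in the tip class of implanted (-2.07) and above 0 in the capillary class of spontaneous tumours (0.90).

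Between the models after PBS, Gpihbp1 and Rbp7 were lower in venous-marker cells of implanted tumours. Gpihbp1 was at 221 and 218 CPM in spontaneous and at 51.5 and 49.98 CPM in implanted tumours (log2 -2.09 ± 0.25, adjusted p = 0.00022). Rbp7 differed by -2.09 (adjusted p = 9.6e-05) and Pparg by -1.11 (adjusted p = 0.015), so that 3 of the 10 genes were called in venous-marker cells beside 6.05% of all genes. In arterial-marker cells 3 genes were called beside 0.932% of all genes, namely Lpl (-3.83, adjusted p = 0.0047), Rbp7 (-1.21, 0.0071) and Pparg (-1.12, 0.047). The Lpl levels behind this were 13.4 and 46.1 CPM in spontaneous and 1.48 and 0.356 CPM in implanted tumours, the latter near 0. In capillary-marker cells Timp4 was called (-2.27, adjusted p = 0.013, beside 2.03% of all genes) and in tip-marker cells Angptl4 (-0.86, adjusted p = 0.033, beside 1.3%). The Timp4 call uses spontaneous PBS and is not independent of the filter. After cGAMP, Rbp7 was lower in implanted tumours in arterial- (-1.75), capillary- (-2.10), tip- (-2.45) and venous-marker cells (-2.56), where 1.81%, 2.79%, 2.39% and 12.2% of all genes were called. Of the 10 genes, 1 was called after cGAMP in arterial-, 3 in capillary-, 6 in tip- and 3 in venous-marker cells. These calls were lower in implanted tumours, except for 1 gene in venous-marker cells that was higher.

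UMIs of several of the genes were counted per cell. With 2000 UMIs drawn per cell, at least 5 of the 10 genes were found in 13.3% and 20.6% of ECs of spontaneous PBS, 21.3% and 19.3% of spontaneous cGAMP, 9.44% and 10.4% of implanted PBS, and 6.43% and 8.85% of implanted cGAMP. All spontaneous libraries lay above all implanted ones. Among classes such cells were 289 of 803 capillary-marker cells (36.0%), 12.6% of proliferative-, 9.40% of tip-, 9.38% of arterial- and 5.07% of venous-marker cells, and 0 of 361 lymphatic-marker cells, which allows a share of up to 0.831%. In mural-marker cells without a Pecam1 UMI it was 3 of 77 (3.90%). Fabp4 and Fabp5, found in 75.3% and 48.1% of those cells, count towards the 5 genes, so that these shares are descriptions. Aqp7 was found in 114 cells at this depth. Over libraries, the median share of cells with a Cd36 UMI was 97.2% among ECs with an Aqp7 UMI and 33.6% among the others. For Rbp7 these shares were 86.4% and 44.3%, for Fabp5 82.1% and 33.8%, for Lpl 23.0% and 2.07% and for Timp4 12.9% and 0.466%. The share was higher among Aqp7 cells in 8 of 8 libraries for all genes but Gpihbp1 and Pparg, which were higher in 7. With 11 to 18 Aqp7 cells per library these are descriptions.

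**Figure D5:**
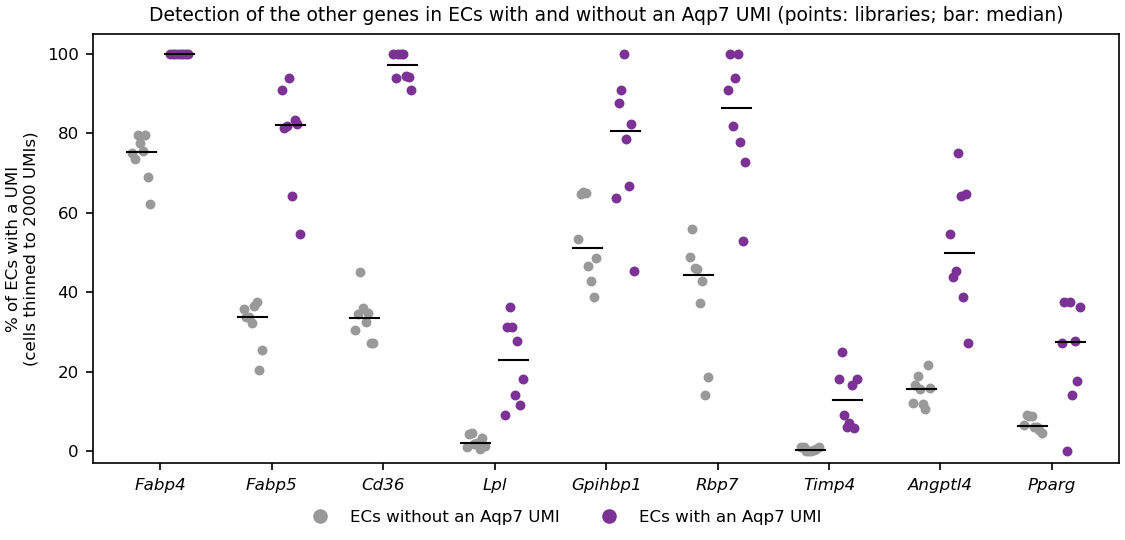
Percent of ECs with a UMI of each other gene, at 2000 UMIs per cell, in ECs with and without an Aqp7 UMI (points: libraries, bars: median). The median for Cd36 is 97.2% with and 33.6% without Aqp7, and that for Timp4 is 12.9% and 0.466%.

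Over the 45 class means of all libraries, which share libraries and depth, the genes with the most similar pattern were found by Pearson's r of log2 levels, as a description. Fabp4 ran with Lipe and Scarb1 (both 0.91), Cd36 with Lims2 (0.93) and Adgrg1 (0.92), Rbp7 with Cd81 (0.93) and Rflnb (0.91), and Gpihbp1 with Fam212a (0.92) and Rgcc (0.91), a marker of the capillary gate. Lpl (0.68) and Timp4 (0.67) shared Sgk1 as the nearest gene, and Fabp5 was nearest to Scarb1 (0.88), Angptl4 to Pawr (0.84), Aqp7 to Mcc (0.76) and Pparg to Gimap1 (0.74). Among the 10 genes, Fabp4 and Cd36 were the most alike (0.93), and Rbp7 and Angptl4 went apart (-0.44).

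A list of 47 other genes of fatty acid uptake, lipid droplets, oxidation and their regulators gave 40 that were tested. In implanted tumours 4 of these rose and 10 fell after cGAMP, that is 14 of 40 beside the 25% of all genes called, and in spontaneous tumours 2 rose and 5 fell, 7 of 40 beside 12.7%. The endothelial lipase Lipg rose in both, from 9.25 ± 1.603 to 35.8 ± 5.51 CPM in implanted (log2 1.85 ± 0.31, adjusted p = 0.00267) and from 1.24 ± 0.864 to 6.91 ± 2.26 CPM in spontaneous tumours (1.85 ± 0.31, adjusted p = 0.00489). The lipid droplet coat gene Plin2 also rose in both (1.01, adjusted p = 0.00024, and 0.87, adjusted p = 0.00088). Hilpda, an inhibitor of intracellular lipolysis, rose in implanted tumours from 30.7 ± 2.25 to 97.1 ± 15.5 CPM (1.62, adjusted p = 0.000219). The fatty acid transporter gene Slc27a3 fell in both models, from 41.5 ± 2.11 to 11.5 ± 1.56 CPM in implanted (-1.77, adjusted p = 8.96e-05) and from 25.3 ± 4.68 to 10.3 ± 0.745 CPM in spontaneous tumours (-1.21, adjusted p = 0.00123). In implanted tumours the monoglyceride lipase Mgll (-0.83, adjusted p = 0.00295) and the lipoprotein receptor Scarb1 (-0.82, adjusted p = 0.0046) fell too. In spontaneous tumours the acyl-CoA synthetase Acsl1 (-0.78, adjusted p = 0.018), the acyl-CoA-binding gene Dbi (-0.35, 0.0384) and the oxidation gene Hadhb (-0.35, 0.035) fell.

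Between the responses 0 of the 40 were called by limma (0.662% of all genes), and 8 had an unadjusted p under 0.05. After PBS 3 were called, beside 7.83% of all genes. Lipg (2.24, adjusted p = 0.00288) and Slc27a3 (0.71, adjusted p = 0.0297) were higher in implanted tumours and the lipolysis inhibitor G0s2 was lower (-2.02, adjusted p = 0.0466). After cGAMP 4 were higher and 8 lower in implanted tumours (13.8% of all genes called), among them the lipoprotein receptor gene Vldlr (1.27, adjusted p = 0.0151), Lipg (2.24, 0.0033) and Hilpda (0.84, 0.0148) on the higher side and Scarb1 (-0.87, 0.00815) and the lipase Lipe (-0.84, 0.0204) on the lower side.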

How the data were processed

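Single-cell libraries (10x Chromium 3′ chemistry) of sorted tumour ECs were used, 2 in each of 4 groups taken from the labels. The authors aligned reads to mm10 with Cell Ranger 3.0.0 and, in Seurat 3.1.1, removed cells with few genes or a high mitochondrial share. They deposited natural log values per cell, made from UMIs scaled to a fixed total. UMIs could be worked back, since 100% of values were whole within 0.01. The tables held 8204 cells and 97421522 UMIs, and 0 numeric columns were left unused.

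For each library the mean CPM over Pecam1-positive cells was taken, log2 of it plus 1 was fitted with limma 3.58.1 (R 4.3.3, eBayes with trend, 8 libraries in 1 fit), and p-values were adjusted by Benjamini-Hochberg. The filter asked for 5 CPM or more in 2 or more libraries and left 10424 genes. The fit was tested on simulated data. Fold changes on this scale understate low genes. A marker class needed a mean z score of at least 0.5, a lead of at least 0.25 over the next class and 2 markers with a UMI. Doublets were not called here, and a cell with markers of 2 types may be one. Wilson intervals and floors cover counting error only (95%, 3 counts).

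The 10 genes and all lists were chosen with earlier results of these data known. All 10 are named in each comparison, and of the other lipid genes up to 6 called ones per comparison with the largest log2 fold change. Other called genes of that list are only counted, and 1 of the 6 after cGAMP is not reported here. For each of the 10 genes the 3 nearest others with a mean of at least 10 CPM were computed. Alternatives covered scaling, pseudocount, filters, cells used, UMI sums, drawing of 2000 UMIs, replicate blocks and each library left out. Two-library groups were not checked for outliers.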

Additional observations from a re-analysis of the deposited data

Results flagged for a closer look

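The Timp4 response to cGAMP differed between the models by 2.76 on the log2 scale (implanted minus spontaneous, limma interaction, adjusted p = 0.046). It was picked out because a test of the difference itself passed the threshold. Timp4 passed the filter on low values only through spontaneous PBS, where it was highest, so the result is not independent of that filter.

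Lpl was found in 39.0% of 77 mural-marker cells that carried no Pecam1 UMI, at 2000 UMIs per cell, against 2.66% of ECs. These cells lie outside the comparisons, and the mean level was 255 CPM in them against 20.8 CPM in the ECs. It was picked out as a signal in cells that no comparison used.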

How the results depend on the processing

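Alternatives left out a library, changed the scaling, the pseudocount (5 CPM), the filter, the cells or the counting, or added a block. Of the values compared, 45 changed sign and 0 of these were called in either fit. Leaving out 1 library gave 0 to 2 of the 10 genes called in the spontaneous response, 2 to 5 in the implanted response, 0 to 3 in the difference of the responses, 0 to 4 after PBS and 2 to 7 after cGAMP, and 10 in capillary-marker cells in every case. The call in spontaneous tumours fell to 0 without capillary-marker cells. In the difference of the responses 0 genes were called with a pseudocount of 5 CPM, without a filter, with all deposited cells, without other-cell gates, without capillary-marker cells and with the crossed replicate block, 2 with UMIs summed per library or without proliferative-marker cells, and 3 with 2000 UMIs drawn per cell. After PBS 1 gene was called without a filter and 4 with the crossed replicate block, and after cGAMP 3 were called without a filter. The cause was not tested. The fits without capillary-marker cells and with the crossed block were chosen after seeing the data.

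Replicate numbers are shared between groups, and the deviations of same-numbered libraries correlated at -0.22 (spontaneous PBS with cGAMP), 0.13 (implanted), -0.14 (PBS) and -0.04 (cGAMP). With 2 libraries per group these values cannot tell whether same-numbered libraries shared a day, an animal or a batch, and the labels do not say. With the replicate block 1, 4, 1, 3 and 6 genes were called in the spontaneous response, the implanted response, their difference, after PBS and after cGAMP, and the gene added after PBS was Rbp7 (adjusted p = 0.0277). Median-of-ratios scaling moved the share of calls that were higher, over all genes, from 40.2% to 66.4% (spontaneous), 34.3% to 51.5% (implanted), 43.3% to 67.9% (after PBS) and 38.0% to 58.6% (after cGAMP), while the median over all genes moved by up to 0.10 on the log2 scale.

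Values that changed sign, all uncalled, were these. In spontaneous tumours Lpl was at 0.044 with median-of-ratios scaling, 0.82 with summed UMIs, 0.037 with all deposited cells, 0.015 with cells of at least 2000 UMIs and 0.60 without capillary-marker cells, and Aqp7 at -0.17 with all deposited cells and -0.053 without capillary-marker cells. In implanted tumours Lpl was at -0.087 without other-cell gates, Gpihbp1 at -0.035 with all deposited cells, and Aqp7 at 0.13 with 2000 UMIs drawn and 0.41 without capillary-marker cells. In the difference Lpl was at -0.58 and Gpihbp1 at 0.0014 with summed UMIs, Gpihbp1 at 0.066 and Aqp7 at 0.47 without capillary-marker cells, and Aqp7 at 0.080 with 2000 UMIs drawn. After PBS Fabp5 was at -0.020 without other-cell gates and -0.015 without capillary-marker cells, and Aqp7 at 0.18 with summed UMIs. After cGAMP Angptl4 was at 0.058 with median-of-ratios scaling, 0.17 with summed UMIs, 0.053 with all deposited cells, 0.074 with at least 2000 UMIs, 0.14 with 2000 drawn and 0.084 without capillary-marker cells.

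Leaving out 1 library, the spontaneous response ranged from -0.34 to 0.052 for Fabp4, -0.15 to 0.39 for Cd36, -0.75 to 0.64 for Lpl, -0.10 to 0.34 for Gpihbp1, -0.39 to 0.61 for Aqp7, -0.024 to 0.54 for Angptl4 and -0.069 to 0.38 for Pparg. The implanted response of Gpihbp1 ranged from -0.19 to 0.27. The difference ranged from -0.32 to 1.06 for Lpl, -0.31 to 0.15 for Gpihbp1 and -0.96 to 0.039 for Aqp7. After PBS Fabp5 ranged from -0.063 to 0.094 and Aqp7 from -0.72 to 0.28, and after cGAMP Angptl4 from -0.17 to 0.12. Depth limits Timp4, Aqp7 and Lpl most, which had 14 to 78 UMIs per library in the case of Timp4.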
